A study of Mus musculus with 40 samples.

Results

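Trav10, Trav10d and Trav10n are 3 copies of a variable (V) segment of the mouse T cell receptor alpha locus (Tcra), and they sit at 3 places along its V array. They were taken by name (TRAV10, TRAV10D and TRAV10N in the files) from the 4 Tcra repertoire tables of the series. They make up 3 of the 111 V segments listed there and 3 of the 106 Trav segments listed in both replicates. Their joins were followed over all 43 Traj segments of the tables.

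A developing T cell makes its alpha chain by joining 1 Trav segment to 1 Traj segment. Early joins tend to pair proximal Trav with 5′ Traj segments, those at the end of the J array that faces the V array, and later joins replace them with pairs that lie farther out on both sides. In the mouse the central V array is duplicated, and the letters d and n mark the duplicated copies of a segment. The enhancer Ea, downstream of the constant region gene Trac, drives the opening and joining of the J array. CTCF is a protein that binds DNA and holds the ends of chromatin loops, and its site at Ea is called EACBE in the labels.

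The title of the series asks what this site does in Tcra rearrangement. Thymocyte RNA of C57BL/6 mice aged 4 to 8 weeks was copied by 5′ RACE, a method that extends receptor transcripts to their 5′ ends and so captures V and J together. The mice carried the site on both alleles (EACBE+/+, here wild type) or lacked it on both (EACBE-/-), with 2 libraries per genotype. The labels name no treatment for these repertoire libraries and no Cre or transgene. The labels do not say whether the 2 libraries of a genotype are separate mice, so p-values measure only the spread between these libraries. The tables hold receptor segments alone, so the thymocyte label could not be checked against marker genes.

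Tcra tables held 10694 and 172388 counts in wild type against 19085 and 163953 in EACBE-/-, for replicates 1 and 2. Replicate 1 was shallow in both genotypes, and a single count was 0.00935% of the table in wild-type replicate 1. Trdv segments were listed only in replicate 2, at 2.01% and 1.89% of counts, and stayed in the totals. The sources used here do not give whether each count stands for 1 read or 1 receptor. Intervals and limits of detection therefore cover counting error only. A share of counts in whole thymocyte RNA cannot tell fewer cells that use a segment from less receptor RNA per cell.

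All 3 copies lie on chromosome 14 in the RefSeq annotation of GRCm38.p6, the assembly that mm10 is built on. Trav10d (gene 100101486) spans 52810997 to 52811496 and is gene 18 of 130 annotated Trav genes, counted from the distal end. It lies 1345.8 kb from Traj58, the most 5′ Traj of the tables. Trav10n (gene 667626) spans 53122114 to 53122611, is gene 52 and lies 1034.7 kb from Traj58. Trav10 (gene 667765) spans 53505790 to 53506286, is gene 92 and lies 651.0 kb from Traj58. Split into 44, 43 and 43 genes, the array thus has Trav10d in its distal, Trav10n in its central and Trav10 in its proximal part. The copies are 310.6 kb and 383.2 kb apart, while Traj58 to Traj2 spans only 60.6 kb. The sources used here do not give how the counting divided reads between these copies, so the value of each copy carries that uncertainty. Their sum does not depend on how reads were divided among the 3, though it would on reads discarded or given to other segments, which was not tested.

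The 3 copies together took a larger share of the EACBE-/- repertoire, 1.55-fold that of wild type, and each copy was higher in both EACBE-/- libraries. In fits on genotype alone the sum passed the test over families of copies and no single copy passed the test over segments. With the replicate number as a block all 3 copies were called, as were 49 of 106 Trav segments. The labels do not say what that number marks. Proximal Trav10 was the most used copy in 4 of 4 libraries.

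Trav10d, the distal copy, took 0.468% and 0.292% of Tcra counts in wild-type replicates 1 and 2 (50 and 504 counts). It took 0.796% and 0.555% in EACBE-/- (152 and 910 counts). Both EACBE-/- libraries were above both wild-type libraries, with means of 0.676% ± 0.171 and 0.380% ± 0.124 (SD, n = 2), a 1.78-fold difference. The 95% Wilson interval of wild-type replicate 1, 0.355% to 0.616%, included the value of EACBE-/- replicate 2. Trav10n, the central copy, took 0.393% and 0.319% in wild type against 0.644% and 0.497% in EACBE-/-. Its genotypes did not overlap, and its means were 0.356% ± 0.0521 and 0.571% ± 0.104 (SD, n = 2), 1.60-fold apart. Trav10 took 0.814% and 0.817% in wild type (87 and 1409 counts) and 1.08% and 1.22% in EACBE-/- (207 and 2000 counts). The wild-type libraries lay close together, both EACBE-/- libraries were higher, and the means of 0.815% ± 0.00269 and 1.15% ± 0.0956 (SD, n = 2) differed 1.41-fold.

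In edgeR's quasi-likelihood test over 106 Trav segments the log2 change was 0.85 for Trav10d (SE 0.433, adjusted p = 0.376), 0.69 for Trav10n (SE 0.403, adjusted p = 0.437) and 0.50 for Trav10 (SE 0.308, adjusted p = 0.437). Thus 0 of the 3 copies were called, 0 had an unadjusted p below 0.05, and 0 were called by DESeq2. Over all Trav segments 5.66% were called, every one of them lower in EACBE-/-. The 95% intervals of the log2 change ran from -0.18 to 1.87 for Trav10d, from -0.27 to 1.64 for Trav10n and from -0.23 to 1.23 for Trav10, so rises of over 2-fold and small falls both lay within them. Higher and non-overlapping libraries, as in these 3 copies, were found in 25.5% of Trav segments. With 2 libraries against 2 the exact permutation test cannot go below p = 0.33, and each copy reached that value.

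**Figure D1:**
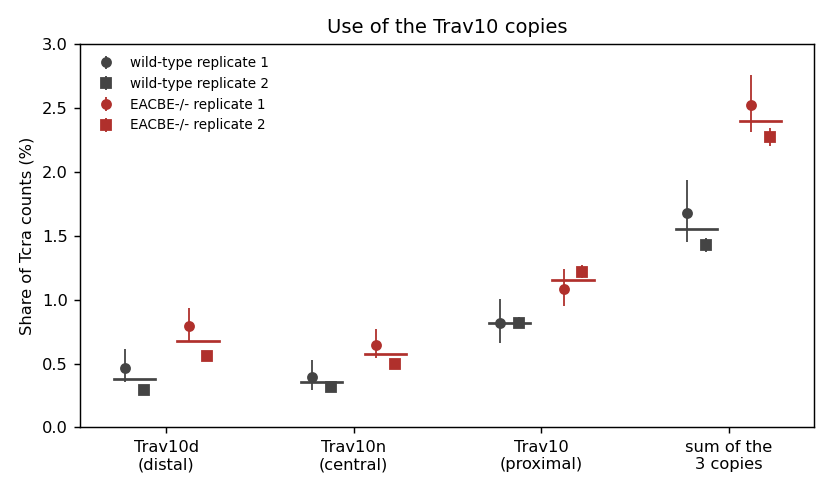
Percent of Tcra counts (y axis) of each copy and of their sum in the 4 libraries, with 95% Wilson intervals as error bars and the mean of each genotype as a horizontal line. EACBE-/- libraries lie above wild-type libraries for each copy, and the sum runs from 1.43% and 1.67% in wild type to 2.27% and 2.53% in EACBE-/-.

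The sum of the 3 copies was 1.67% and 1.43% in wild type (179 and 2463 counts) and 2.53% and 2.27% in EACBE-/- (482 and 3725 counts). The libraries did not overlap. The sum rose by a log2 change of 0.63 (SE 0.155, 95% interval 0.23 to 1.04, adjusted p = 0.0412, edgeR's quasi-likelihood test over 47 families). Higher and non-overlapping libraries were found in 27.7% of these families. Of the families 25.5% were called, 6.38% higher and 19.1% lower, and the 3 that rose were Trav12-1, Trav15-1 and Trav10. The median family had a log2 change of -0.16, and with TMM factors, which move that median to 0.01, the sum had a log2 change of 0.80 (adjusted p = 0.0245, edgeR). The call was lost whichever library was left out, with adjusted p = 0.123 without wild-type replicate 1, 0.263 without wild-type replicate 2, 0.203 without EACBE-/- replicate 1 and 0.113 without EACBE-/- replicate 2 (edgeR).

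How the copies divided this sum showed no such separation of the genotypes. Trav10 held 48.6% and 57.2% of the 3 copies' counts in wild type against 42.9% and 53.7% in EACBE-/-. Trav10d held 27.9% and 20.5% against 31.5% and 24.4%, and Trav10n 23.5% and 22.3% against 25.5% and 21.9%. The genotypes overlapped for each copy, and the two-sided exact permutation test gave p = 0.667 for Trav10 and Trav10d and p = 1 for Trav10n. In both genotypes Trav10d held more, and Trav10 less, of the sum in replicate 1 than in replicate 2. Within replicates 1 and 2, EACBE-/- over wild type was 1.13-fold and 1.19-fold for the part held by Trav10d. It was 0.884-fold and 0.939-fold for Trav10, and 1.09-fold and 0.980-fold for Trav10n. Whether the replicate number pairs the genotypes is not given in the labels, so this shift was not tested. In the order of levels, Trav10 was above Trav10d and Trav10n in 4 of 4 libraries (exact sign-flip permutation p = 0.125, the smallest that 4 libraries allow, adjusted 0.375 over 12 comparisons of copies). Trav10d and Trav10n did not differ beyond their spread: Trav10d was higher in 3 of 4 libraries, by 0.0645 percentage points ± 0.0733 (SD over 4 libraries).

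Next, the joins of each copy were followed along the J array, cut into 5′ (Traj58 to Traj42), middle (Traj40 to Traj22) and 3′ (Traj21 to Traj2) segments. In wild type the distal and central copies were joined to 3′ Traj more often than proximal Trav10 was, and in EACBE-/- the 3′ share of all 3 copies was lower. The fall passed the test for Trav10d and Trav10n and not for Trav10.

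Trav10d placed 32% and 41.7% of its joins in 3′ Traj in wild type (16 and 210 counts) and 10.5% and 17.1% in EACBE-/- (16 and 156 counts). Trav10n placed 31.0% and 48.9% there in wild type against 17.9% and 23.3% in EACBE-/-. Trav10 placed 20.7% and 24.0% there in wild type against 15.0% and 17.0% in EACBE-/-. In each copy both EACBE-/- libraries lay below both wild-type libraries, as they did for 67.6% of Trav segments. The mean fell by 23.0 percentage points for Trav10d (36.8% ± 6.84 to 13.8% ± 4.68), by 19.3 for Trav10n (39.9% ± 12.7 to 20.6% ± 3.84) and by 6.38 for Trav10 (22.3% ± 2.33 to 16.0% ± 1.40, all SD, n = 2). All Trav segments together went from 27.1% ± 4.39 to 15.9% ± 1.80. The separation of the genotypes in Trav10n depended on the bound. With the J array split at Traj32 instead, Trav10n placed 54.8% and 72.9% of its joins in Traj32 to Traj2 in wild type. In EACBE-/- it placed 47.2% and 56.2% there, so the genotypes overlapped. With that bound both EACBE-/- libraries still lay below both wild-type libraries in Trav10d and in Trav10.

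Use of a Traj part was then tested within each segment, with the segment's own total as the offset, so that its level does not enter. The 3′ part fell by a log2 change of -1.36 in Trav10d (SE 0.218, adjusted p = 8.21e-08, edgeR) and of -1.05 in Trav10n (SE 0.218, adjusted p = 3.85e-05, edgeR). In Trav10 it had a log2 change of -0.51 (SE 0.229, 95% interval -0.95 to -0.06, adjusted p = 0.0712, edgeR). The two-sided exact permutation test of the 3′ share gave p = 0.33 for each copy, the smallest that 2 libraries against 2 allow. Among the 9 parts of the 3 copies 4 were called, against 33.7% of all 306 tested. A lower 3′ part was called in 66.0% of the Trav segments tested. The parts of a segment share a fixed total, so the rises are not separate from the falls: the middle part of Trav10d rose by 0.59 (adjusted p = 0.0430, edgeR) and the 5′ part of Trav10n rose by 0.61 (adjusted p = 0.0324, edgeR) on the log2 scale. Higher calls were made for 13.3% of middle and 20.4% of 5′ parts. The log2 changes of the 5′ part of Trav10d, the middle part of Trav10n and the 5′ and middle parts of Trav10 lay between 0.10 and 0.46, with adjusted p from 0.105 to 0.739 in edgeR.

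These calls rested in part on the deep wild-type library. Without wild-type replicate 2 the 3′ change was -1.05 in Trav10d (adjusted p = 0.143) and -0.50 in Trav10n (adjusted p = 0.650), and without EACBE-/- replicate 1 it was -0.93 in Trav10n (adjusted p = 0.0708), all in edgeR. The higher calls of the middle part of Trav10d and the 5′ part of Trav10n were lost without wild-type replicate 2, EACBE-/- replicate 1 or EACBE-/- replicate 2.

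**Figure D2:**
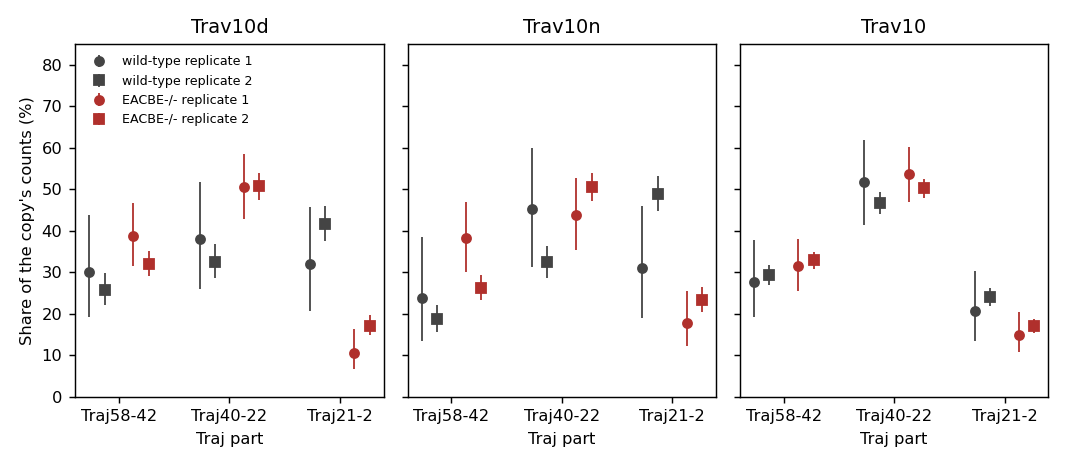
Percent of each copy's joins (y axis) made to 5′, middle and 3′ Traj (x axis) in the 4 libraries, with 95% Wilson intervals as error bars, 1 panel per copy. At the 3′ part, on the right of each panel, the EACBE-/- libraries, 10.5% to 23.3%, lie below the wild-type libraries of the same copy.

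Measured against the whole repertoire, joins of Trav10d to 3′ Traj were also fewer, at 0.150% and 0.122% of Tcra counts in wild type against 0.0838% and 0.0951% in EACBE-/-, or 1.52-fold lower. Those of Trav10n were 0.122% and 0.156% against 0.115% and 0.116%, or 1.20-fold lower. Those of Trav10 were 0.168% and 0.196% against 0.162% and 0.207% and overlapped. The rise in level of the copies thus lay in 5′ and middle joins: their share of the repertoire was 2.26-fold and 2.51-fold higher for Trav10d, 2.45-fold and 1.90-fold for Trav10n and 1.60-fold and 1.49-fold for Trav10. None of these 6 overlapped between genotypes. Higher and non-overlapping shares were found for the 5′ joins of 30.5% and the middle joins of 31.4% of Trav segments, and lower ones for the 3′ joins of 42.9%.

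The mean Traj number, which is higher when joins lie nearer the 5′ end of the J array, gave the same order without the bounds of the parts. It was 29.6 and 26.7 for Trav10d in wild type against 35.9 and 33.8 in EACBE-/-, a difference of 6.70. For Trav10n it was 29.9 and 24.0 against 33.9 and 31.6, a difference of 5.82. For Trav10 it was 32.3 and 31.5 against 33.5 and 34.0, a difference of 1.84. EACBE-/- was higher in all 3 without overlap, as in 68.6% of Trav segments, and all Trav segments together moved from 31.8 and 30.8 to 35.0 and 35.1. The mean of Trav10d thus lay below that of all Trav in wild type, and in EACBE-/- above it in replicate 1 and below it in replicate 2.

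**Figure D3:**
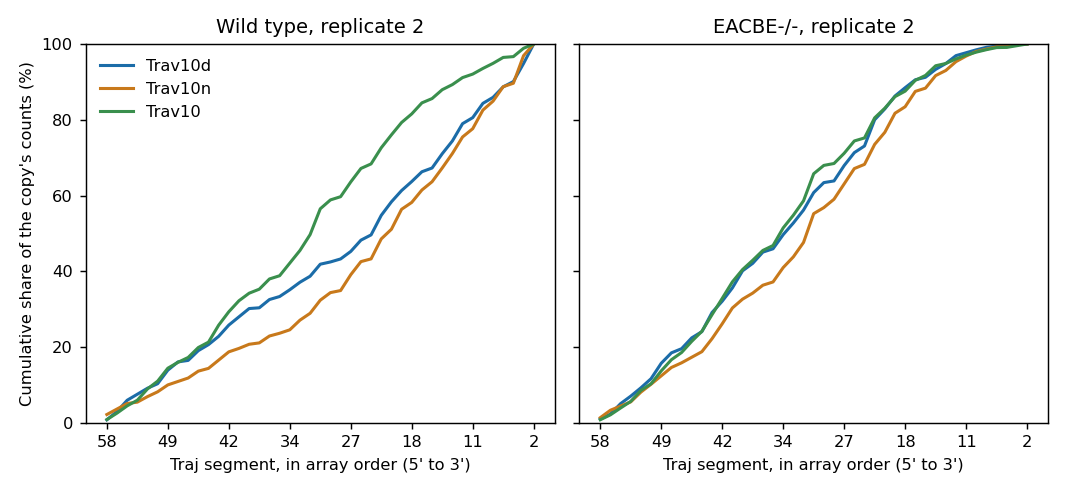
Cumulative percent of a copy's joins (y axis) along the Traj segments from 5′ to 3′ (x axis), in the replicate 2 libraries of both genotypes. In wild type the curves of Trav10d and Trav10n run below that of Trav10 from the middle of the J array on, and in EACBE-/- the curve of Trav10d lies close to that of Trav10.

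The copies themselves were compared within each library. The 3′ share of Trav10d exceeded that of Trav10 by 11.3 and 17.7 percentage points in wild type, and by -4.45 and 0.193 in EACBE-/-. The mean difference was thus 14.5 points in wild type and -2.13 in EACBE-/-, and the genotypes did not overlap. The exact permutation test of that change gave p = 0.33, the smallest possible, which is 0.8 adjusted over 12 comparisons. Trav10n exceeded Trav10 by 10.3 and 24.9 points in wild type and by 2.91 and 6.36 in EACBE-/-, so it was higher in 4 of 4 libraries (exact sign-flip permutation p = 0.125, adjusted 0.375). Between Trav10d and Trav10n the difference was 1.05 and -7.24 points in wild type against -7.36 and -6.17 in EACBE-/-. Trav10d, which lies farther from the J array, had the lower 3′ share in 3 of 4 libraries. Trav10d also had the higher 5′ share in 4 of 4 libraries, by 0.604 to 7.07 points (exact sign-flip permutation p = 0.125, adjusted 0.375). This order of d and n was common among families with an original, a d and an n copy. The d copy had the higher mean Traj number in 13 of 17 and 17 of 22 families in wild-type replicates 1 and 2. In EACBE-/- it did in 14 of 20 and 16 of 22, all with at least 20 counts in both copies.

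In replicate 2 some of these values differed by more than counting error. In wild-type replicate 2 the 95% Wilson interval of the 3′ share was 37.4% to 46.0% for Trav10d and 44.8% to 53.1% for Trav10n, which overlap, and 21.8% to 26.3% for Trav10. In EACBE-/- replicate 2 it was 14.8% to 19.7% for Trav10d and 15.4% to 18.7% for Trav10, which overlap, and 20.5% to 26.3% for Trav10n. The intervals of the 3 copies all overlapped in wild-type replicate 1, at 20.8% to 45.8% for Trav10d, 19.1% to 46.0% for Trav10n and 13.5% to 30.4% for Trav10. They also did in EACBE-/- replicate 1, at 6.58% to 16.4%, 12.1% to 25.6% and 10.8% to 20.5% in turn.

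Single Traj segments were then examined. Partners were ranked by their mean share over the 4 libraries, each with equal weight. The copies shared their leading partners: Traj31 and Traj23, the most used Traj segments over all Trav, were among the 5 leading partners of each copy. Trav10 gave Traj31 10.3% and 6.81% of its joins in wild type against 4.83% and 7.15% in EACBE-/-. Trav10n gave it 7.14% and 3.45%, then 7.32% and 7.61%. Trav10d gave Traj23 most, at 6.00% and 5.16%, then 5.26% and 6.92%. These genotypes overlapped for Trav10 with Traj31 and for Trav10d with Traj23, and did not for Trav10n with Traj31. The other leading partners were Traj31, Traj49, Traj45 and Traj26 for Trav10d, Traj12, Traj23, Traj33 and Traj22 for Trav10n, and Traj23, Traj43, Traj26 and Traj40 for Trav10. For Trav10n, Traj12 and Traj33 ranked 2 and 4 through 6 and 5 of the 42 counts of wild-type replicate 1 (14.3% and 11.9%), and without that library they ranked 13 and 24. Traj26 of Trav10 ranked 9 without it, and the 5 partners of Trav10d kept their ranks.

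At the 3′ end of the J array the joins thinned out. The terminal segments, Traj9 to Traj2, took 8.00% and 19.4% of Trav10d joins in wild type (4 and 98 counts) and 0 and 2.31% in EACBE-/- (0 and 21 counts). With 152 counts in EACBE-/- replicate 1, the 0 there allows a share of up to 1.97%. They took 4.76% and 22.4% of Trav10n joins against 4.07% and 3.19%, and 4.60% and 7.95% of Trav10 joins against 2.42% and 2.95%. EACBE-/- was lower without overlap in all 3 copies, as in 75.2% of Trav segments, and all Trav together went from 7.85% and 13.1% to 2.98% and 4.02%. The wild-type values of Trav10d and Trav10n were high in replicate 2 alone.

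Traj4 took 2.00% and 4.76% of Trav10d joins in wild type against 0 and 0.440% in EACBE-/-. It took 2.38% and 7.27% of Trav10n joins, then 1.63% and 0.736%, and 2.30% and 2.20% of Trav10 joins, then 0.483% and 0.450%. It was lower in EACBE-/- without overlap in each copy, as was Traj9, though several of these values rest on 1 or 2 counts. The same held for Traj4 in 61.9% and for Traj9 in 48.6% of Trav segments. Traj2, the last segment, had 0 and 26 counts with Trav10d in wild type and none in either EACBE-/- library. Pooled per genotype, that is 26 of 554 joins against 0 of 1062, at least 16.6-fold lower when the EACBE-/- group is set to a floor of 3 counts, but all 26 counts came from wild-type replicate 2. Traj2 had 0 and 17 counts with Trav10n against 1 and 0, and 0 and 16 with Trav10 against 0 and 9, which overlap. Over all 43 Traj segments, shares were higher in EACBE-/- without overlap for 8, 13 and 5 segments of Trav10d, Trav10n and Trav10, and lower for 8, 5 and 13. Among all such shares of Trav segments 19.8% were higher and 17.5% lower.

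Of the 129 possible pairs of the copies with a Traj, 78 had counts enough to be tested and 0 were called in edgeR's quasi-likelihood test, against 3.35% of the 2417 pairs tested in all (0.372% higher and 2.98% lower). An unadjusted p below 0.05 was reached by 10 pairs, 6 of Trav10d, 3 of Trav10n and 1 of Trav10, against 420 of the 2417 tested in all. All 10 were higher in EACBE-/-. A pair can pass the filter on low counts through the EACBE-/- libraries alone, so this direction is not a result. Trav10n with Traj34, 1 of the 10, had 0 and 5 counts in wild type and 3 and 31 in EACBE-/-. DESeq2 called 0, with 30 of the 78 adjusted p-values not given by the tool. Without the filter on low counts 1 pair was called, Trav10d with Traj2 (adjusted p = 0.0428, edgeR), whose counts all lie in wild-type replicate 2, so no fitted fold is given.

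The change in J use was set beside that of the other duplicated segments. Of 24 families with an original, a d and an n copy, the original copy had the higher mean Traj number than the d copy in 24 in wild-type replicate 2 and in 22 in EACBE-/- replicate 2. In Trav10 this gap was 4.80 in wild-type replicate 2, rank 18 of 24, where the median family had 10.6. In EACBE-/- replicate 2 it was 0.231, rank 22, with a median of 4.82. The gap was smaller in EACBE-/- in 23 of the 24 families. In replicate 1 the Trav10 gap was 2.67 in wild type and -2.49 in EACBE-/-, the latter the lowest of the 23 families with counts enough in that library. Trav10 thus ranked 18 or lower in this gap in all 4 libraries.

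**Figure D4:**
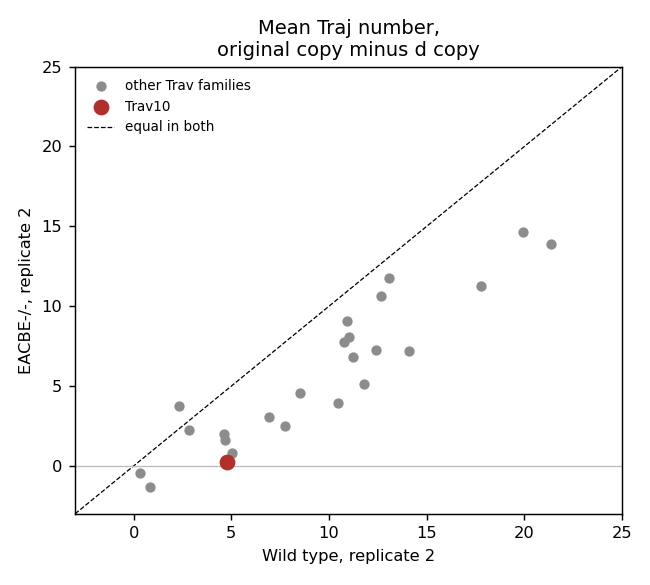
Original minus d copy in mean Traj number for each of 24 duplicated families, wild-type replicate 2 on the x axis and EACBE-/- replicate 2 on the y axis, with Trav10 marked. Trav10 lies at 4.80 and 0.231, and 23 families lie below the line of equal values.

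In level the family stood nearer the top. The fold of the summed copies, 1.55, was rank 4 of the 24 families, which ran from 0.548 to 1.79 with a median of 1.05. All 3 copies were higher in EACBE-/- without overlap in 4 of the 24 families, Trav10, Trav12-1, Trav14-1 and Trav15-1, and all 3 were lower in 2, Trav3-3 and Trav8-2.

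Segments at the same place in the array gave another scale, over those with at least 200 counts in both replicate 2 libraries. Trav10d, at 26.7 in mean Traj number in wild-type replicate 2, lay near the median of 29 distal segments, 26.5, and at 33.8 in EACBE-/- replicate 2 it lay above their median of 30.6, with 8 above it. Trav10n, at 24.0 and 31.6, lay below and then near the medians of 30 central segments, 25.5 and 31.3. Trav10, at 31.5 and 34.0, lay below the medians of 32 proximal segments in both, 35.3 and 37.7, with 26 above it each time. Among proximal segments Trav10 thus joined farther toward the 3′ end than most, and it lies near the distal edge of that part of the array.

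**Figure D5:**
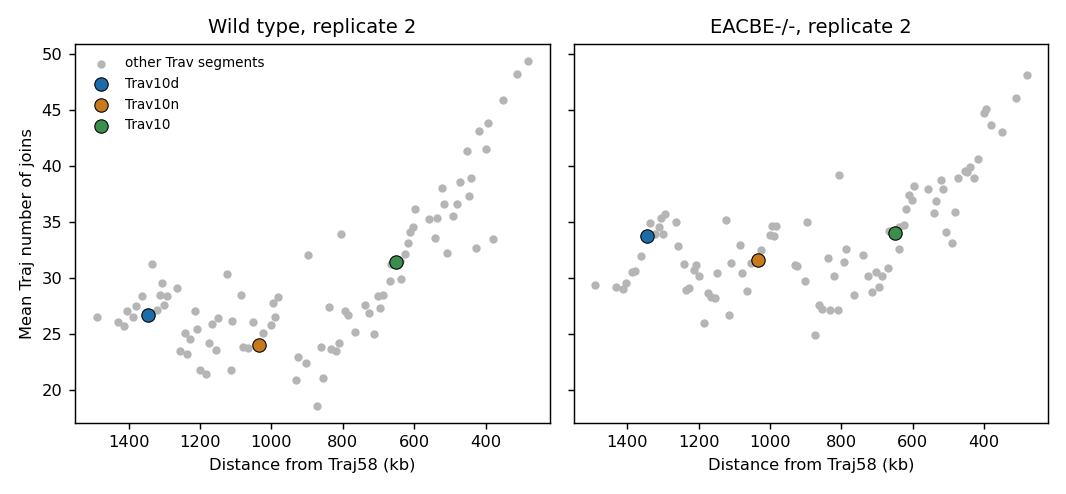
Mean Traj number (y axis) of Trav segments by their distance from Traj58 in kb (x axis), in the replicate 2 libraries of both genotypes, with the 3 copies marked. Trav10 lies low among the proximal segments, at 31.5 in wild type and 34.0 in EACBE-/-, and Trav10d moves from 26.7 to 33.8.

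The nearest 3 segments on each side were compared in level. Over all Trav segments 25.5% were higher in EACBE-/- without overlap. Around Trav10d 4 of 6 neighbours were higher in EACBE-/- without overlap (Trav6d-5, Trav9d-1, Trav8d-1 and Trav7d-5), and the median fold was 1.72, near the 1.78 of Trav10d. Trav9d-1, with the largest fold of 3.30, took only 0.0655% and 0.0464% of wild-type counts. Around Trav10n 1 of 6 was higher and 5 overlapped, with a median fold of 1.25 against 1.60. Around Trav10 2 were higher (Trav6-6 and Trav11), 1 was lower (Trav8-1) and 3 overlapped, with a median of 1.21 against 1.41. Many of these neighbours are themselves duplicated segments whose reads may be divided between copies.

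None of the 3 segments with Traj profiles most like that of a copy was another Trav10 copy. Likeness was the total variation distance between Traj profiles, which is 0 for equal profiles, averaged over the replicate 2 libraries of both genotypes and over 90 other segments. For Trav10d the nearest was Trav7d-5 at 0.124, 24.9 kb away, then Trav13n-1 at 0.131 and Trav16d-dv11 at 0.134. For Trav10n they were Trav14d-3-dv8 at 0.138, Trav7n-4 at 0.145 and Trav6n-6 at 0.149, all within 43.6 kb. For Trav10 they were Trav6-6 at 0.108, 11.1 kb away, Trav7-5 at 0.114 and Trav14n-3 at 0.141. The median distance to all 90 was 0.209, 0.207 and 0.216 in turn. Between the copies the distance was 0.172 for Trav10d and Trav10n, 0.177 for Trav10d and Trav10 and 0.211 for Trav10n and Trav10, and the closest copy was rank 20 for Trav10d, 15 for Trav10n and 26 for Trav10. Low counts raise this distance even between equal profiles. In wild-type replicate 2 Trav10d and Trav10n held 504 and 550 counts, and their nearest segments, Trav7d-5 and Trav14d-3-dv8, held 1973 and 1377. The ranks thus cannot tell a difference in profile from one in depth. The copies were nearer to each other in EACBE-/-: Trav10d and Trav10 went from 0.225 in wild-type replicate 2 to 0.128 in EACBE-/- replicate 2, Trav10n and Trav10 from 0.280 to 0.142, and Trav10d and Trav10n from 0.181 to 0.163. Such a fall was not particular to the copies. Between the same libraries the distance of Trav10 to Trav7d-5 went from 0.237 to 0.105 and that of Trav10d to Trav6-6 from 0.193 to 0.113. Other distances rose, as that of Trav10 to Trav3-4 did, from 0.227 to 0.381. The copies also had more counts in EACBE-/- replicate 2 (815 to 2000) than in wild-type replicate 2 (504 to 1409), and the part of depth in these distances was not tested.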

How the data were processed

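Per the labels' protocols, thymocyte RNA was reverse transcribed with a template-switching adapter (5′ RACE). The authors deposited whole-number counts, V against J segments, 1 table per library. The sources used here give neither the segment caller nor the treatment of near-identical copies. The deposited Hi-C lists hold 20 kb intervals with a boundary score each, the authors' own. Per the submitters' processing notes, the build was mm10 and the tools were Juicer 1.13.02, HiC-Pro 2.11.1, bedtools 2.26.0, Bowtie2 (2.3.4.3 and 2.20.8) and cutadapt 0.4.4.

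Groups follow the labels' genotype. Segments were matched by symbol to RefSeq (GRCm38.p6), and all 106 Trav matched. Counts per Trav segment, per family (original, d and n copies summed), per V-J pair and per Traj part within a segment (segment total as offset) were tested with edgeR 4.0.16 in R 4.3.3 (glmQLFit, glmQLFTest), with library sizes from the table totals and without TMM factors, filterByExpr at 10 and 15 counts, and Benjamini-Hochberg adjustment over all features of a fit at 0.05. Segments listed in 1 replicate alone stayed out of the tests. Other comparisons used two-sided exact permutation tests, and Wilson intervals are at 95%. Each fit was checked on simulated counts, where the segment, family and pair fits recovered no change of 1.5-fold and the pair fit few of 4-fold. A copy or pair without a call may thus still have changed. Named segments were the 3 copies, their 5 leading Traj, 3 neighbours on each side, the 3 most alike segments and the 24 families with all 3 copies; Traj2, Traj4, Traj9 and the terminal part Traj9 to Traj2 were chosen after their values were seen. The alternatives were DESeq2 1.42.0, TMM factors, no filter, other Traj bounds, each pair counted once, table totals in place of segment totals, segments of 1 replicate kept, each library left out and the replicate number as a block. Ranks of Traj without wild-type replicate 1 were added after the data were seen. The members and lists were chosen with earlier results of these data known. The rest used Python 3.11.15 with matplotlib 3.10.9, pandas 2.3.3, scipy 1.17.1 and numpy 2.4.6. No sequence of a copy is printed. The Trb, 4C and chromatin immunoprecipitation samples were not analysed here.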

Additional observations from a re-analysis of the deposited data

How the results depend on the processing

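Of 106 Trav segments 6 were called, 2 to 4 with a library left out and 49 with the replicate number as a block. Of 47 families 12 were called, 0 to 5 with a library left out (the 0 without either EACBE-/- library, with 13 and 16 at an unadjusted p below 0.05, and 15 called by DESeq2 on all libraries) and 36 with the block. Of V-J pairs 81 were called, 19 by DESeq2, 129 without the filter, 0 to 150 with a library left out (the 0 without wild-type replicate 2, with 102 at an unadjusted p below 0.05) and 716 with the block, which called 23 of the 78 tested pairs of the copies (22 higher and 1 lower in EACBE-/-) where 0 were called without it. Of Traj parts 103 were called, 14 with table totals, 16 to 136 with a library left out and 198 with the block. With the block the log2 change was 0.86 for Trav10d (adjusted p = 0.0110), 0.67 for Trav10n (0.0396), 0.51 for Trav10 (0.0338) and 0.65 for the sum (0.000549), all in edgeR. Same-numbered libraries deviated together (r = 0.853 over 91 Trav segments), but there are only 2 pairs and the labels do not say what a number marks, so the numbers were not used as pairs. With a library left out the sum changed by 0.52 to 0.75 on the log2 scale. The 3′ part ran from -1.89 to -1.05 in Trav10d, from -1.31 to -0.50 in Trav10n and from -0.63 to -0.33 in Trav10, and only without wild-type replicate 1 did Trav10 pass (-0.54). With the block it was -0.50 in Trav10 and called. With table totals, where level and J use are tested together, it was -0.57 in Trav10d, -0.29 in Trav10n and 0.017 in Trav10, none called. With each pair counted once the 3′ share differed by -10.1 percentage points in Trav10d, -4.80 in Trav10n and 2.15 in Trav10. Trav10 had all 43 Traj in both replicate 2 libraries, so there this measure reflects replicate 1 alone and says nothing of the -6.38 measured in counts. In wild-type and EACBE-/- replicate 2 Trav10d had 43 and 42 Traj and Trav10n 43 and 41, so it could hardly move there either. For Trav10d it went from 33.3% to 14.7% in replicate 1 and from 32.6% to 31.0% in replicate 2. Values without a call also changed sign, and the cause was not tested. With a library left out, the middle part of Trav10 ran from -0.012 (no wild-type replicate 2) to 0.15, Trav10n with Traj33 from -0.14 to 0.53 (no wild-type replicate 1), Trav10 with Traj31 from -0.32 (no EACBE-/- replicate 2; -0.19 with no wild-type replicate 2) to 0.43, and Trav10 with Traj26 from -0.47 (no wild-type replicate 2) to 0.48. Trav10n with Traj33 was 0.23 with the block. Wild-type replicate 1 held 42 to 87 counts per copy, which limits its J profile.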

Other observations

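Joins of the copies to Trdj, which would make a delta chain, were rare in the Trd repertoire tables. Wild-type replicate 2 (28093 counts) listed 1 count of Trav10d and 1 of Trav10, EACBE-/- replicate 2 (47158 counts) 1 of Trav10n and 2 of Trav10, all with Trdj1, and the copies were not listed in replicate 1.

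Invariant receptors in the same tables gave a scale for rare cells. Trav11 with Traj18, the chain of invariant natural killer T cells, took 0.0561% and 0.0429% of Tcra counts in wild type and 0.0314% and 0.0396% in EACBE-/-. Trav1 with Traj33, the chain of mucosal-associated invariant T cells, was seen 4 and 44 times in wild type and never in EACBE-/-, where Trav1 as a whole had a log2 change of -6.22 (SE 0.419, adjusted p = 0.00182, edgeR).

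Hi-C, which maps contacts between chromatin regions, was deposited as boundary lists for 1 library per genotype, from Rag1-/- mice with and without the site that were given 150 µg of anti-CD3 antibody at 3 weeks and harvested 10 days later. The lists held 400 boundaries in wild type and 533 in EACBE-/-. No 20 kb boundary lay between Trav10d and Trav10 in either list. The boundary nearest to Trav10d and Trav10n, at 52620001 to 52640000 on chromosome 14 (mm10), was 171 kb and 482.1 kb away. It was in both lists, with the authors' score of 0.633 in wild type and 0.337 in EACBE-/-. The boundary nearest to Trav10 was at 53680001 to 53700000 in wild type, 173.7 kb away. In EACBE-/- it was in the adjacent interval, at 53700001 to 53720000, 193.7 kb away. With 1 library per genotype these differences have no test.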
